A study of Homo sapiens with 47 samples.

Results

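Messenger RNA leaves the nucleus through the nuclear pore bound to the export receptor NXF1 and its cofactor NXT1. The genes followed here are 10 factors of this route. Besides NXF1 and NXT1 they are 5 subunits of the THO complex (THOC1, THOC2, THOC3, THOC5 and THOC6), the adaptor ALYREF, the RNA helicase DDX39B and ENY2, a small subunit of TREX-2. They were taken by symbol from the 57507 genes of the expression table, where each symbol had 1 row, and 46 other genes of the mRNA export pathway were followed beside them. Over the 6 HAP1 clones together, none of the 10 passed the test against WT, where 6.6% of all genes did. Single clones differed: THOC2 was lower in C5, and DDX39B was lower in C6. Each was the 1 call of 10, where 7.55% of all genes passed in C5 and 11.7% in C6. In the HCT116 clone THOC6 and NXT1 were lower once the libraries numbered 3 were left out, where 5.92% of all genes passed.

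The THO complex, DDX39B and ALYREF together form TREX, which is loaded on RNA during transcription and splicing. DDX39B is an ATP-dependent helicase that carries RNA within TREX, and ALYREF links the complex to NXF1. NXF1 works as a dimer with NXT1, binds the phenylalanine-glycine repeats of nucleoporins and carries the RNA through the channel. TREX-2 sits at the nuclear basket of the pore, and its subunit ENY2 is shared with the SAGA deubiquitinating module.

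The study edited NUP58, a nucleoporin of the central channel, with Cas9 and a pair of guide RNAs in HAP1, a near-haploid line derived from chronic myeloid leukemia, and in HCT116, a colon carcinoma line. HAP1 contributed 4 libraries each of unedited cells (WT), of cells given Cas9 without a guide (EV) and of the 6 NUP58-edited clones C1 to C6, 32 in all. HCT116 contributed 15 libraries, 4 of an edited clone and 11 of unedited cells (WT, EV1 and EV2). Each edited line grew from 1 cell, so a value of a line is a value of 1 clone, and the libraries of a line are repeats of that clone. The title and the genotype disagreed for 2 HCT116 libraries, which served only as unedited controls. Transfected HAP1 cells had been sorted by fluorescence and transfected HCT116 cells selected with puromycin before single cells were grown out, and the labels give no other treatment. Expression was measured as FPKM, fragments scaled to transcript length and to the mapped fragments of the library, and 18020 to 19456 genes were above 0 in a library. Read counts were not analysed here, so absolute depth is unknown. A relative depth, estimated from the lowest FPKM values with HAP1 WT replicate 1 set to 1, was 0.748 to 1.155 over the libraries.

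To show the start regions of members that the results below turn on, the 150 bases before the RefSeq transcription start (GRCh38.p14, 5′ to 3′) follow for NXF1 and ALYREF, which moved together between libraries, and for THOC2 and DDX39B, which were lower in 1 clone each. Capitals mark matches, on either strand, to the GC box bound by Sp1 (GGGCGG), to the CCAAT box, to the TATA box (TATAAA) or to an ETS motif (CCGGAAGT). No match overlapped another motif.
NXF1 (chr11:62805441-62805590, minus strand): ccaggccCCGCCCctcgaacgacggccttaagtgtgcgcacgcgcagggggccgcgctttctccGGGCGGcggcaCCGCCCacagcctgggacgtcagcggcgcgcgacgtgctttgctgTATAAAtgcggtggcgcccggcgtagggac
ALYREF (chr17:81891588-81891737, minus strand): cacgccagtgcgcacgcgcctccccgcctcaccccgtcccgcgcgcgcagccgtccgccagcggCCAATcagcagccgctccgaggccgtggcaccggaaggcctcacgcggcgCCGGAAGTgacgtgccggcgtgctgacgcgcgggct
THOC2 (chrX:123733053-123733202, minus strand): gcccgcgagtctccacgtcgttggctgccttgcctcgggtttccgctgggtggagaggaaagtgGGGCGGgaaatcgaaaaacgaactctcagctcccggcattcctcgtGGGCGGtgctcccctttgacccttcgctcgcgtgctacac
DDX39B (chr6:31542004-31542153, minus strand): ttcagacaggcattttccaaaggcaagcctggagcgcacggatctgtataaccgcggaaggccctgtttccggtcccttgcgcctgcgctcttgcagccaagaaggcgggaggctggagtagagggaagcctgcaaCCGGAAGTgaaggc
The 250 bases before the start were searched for 8 members, all but ENY2 and THOC1. ALYREF and DDX39B held CCGGAAGT, as did 3.42% of all 35116 start regions in the reference. The GC box was in 6 of the 8 members and in 42.6% of all regions, CCAAT was in 3 and in 32%, and TATAAA was in 3 and in 10.7%. The amino acid response element TGATGNAAN was found in 0 of the 8 and in 3.13% of all regions. These matches are letters only and were not tested for binding.

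NUP58 was examined before the export factors, because it checks the labels. In HAP1 it ranged from 34.3 to 50.4 FPKM in WT and from 8.0 to 28.0 FPKM over the 24 clone libraries, without overlap. Its mean log2 difference between the clones and WT was -1.48 (SE 0.13, limma adjusted p = 9.59e-09). In HCT116 the libraries of the clone held 25.3, 23.3, 44.7 and 24.3 FPKM. The controls ranged from 23.9 to 50.3 FPKM. The library labelled clone replicate 3 was therefore at the level of controls, and the lowest control, 23.9 FPKM, was the library labelled EV2 replicate 3. For this reason HCT116 clone results are given with and without the libraries numbered 3. Of the hematopoietic markers, PTPRC, SPI1 and GATA1 were at 0 in all HAP1 libraries, CD33 and CD34 did not exceed 0.80 FPKM, and TAL1 had a median of 17.5 FPKM. Epithelial KRT8 had a median of 718 FPKM in HCT116 and 3.73 FPKM in HAP1, and EPCAM had medians of 171 and 0.57 FPKM, while the intestinal markers KRT20 and CDX1 did not exceed 2.63 FPKM in HCT116.

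In the 8 unedited HAP1 libraries the members spanned an order of magnitude, and FPKM is per length, so genes can be ranked on it. ALYREF was highest, with a lowest value of 131.3, a median of 200.7 and a highest value of 237.1 FPKM, and DDX39B followed at 96.0, 122.5 and 170.7 FPKM. A readthrough gene is annotated over the same exons as DDX39B. Its sum with DDX39B was 212.1 to 285.5 FPKM in these libraries, so the rank of DDX39B depends on how reads were split. ENY2 ranged from 46.1 to 82.8 FPKM around a median of 73.9. THOC2 had a median of 57.7 FPKM, NXF1 of 49.98, THOC6 of 41.6, NXT1 of 28.4, THOC3 of 27.6 and THOC1 of 27.4 FPKM. THOC5 was lowest, at 11.6 to 16.7 FPKM, and did not overlap any other member. DDX39B and ENY2 did not overlap either. Every other pair of neighbours in this order overlapped in range, so their order was within the spread. All 10 members were at or above the median expressed gene in HAP1, from the 50.2th percentile for THOC5 to the 96.9th for ALYREF among 13180 genes.

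**Figure D1:**
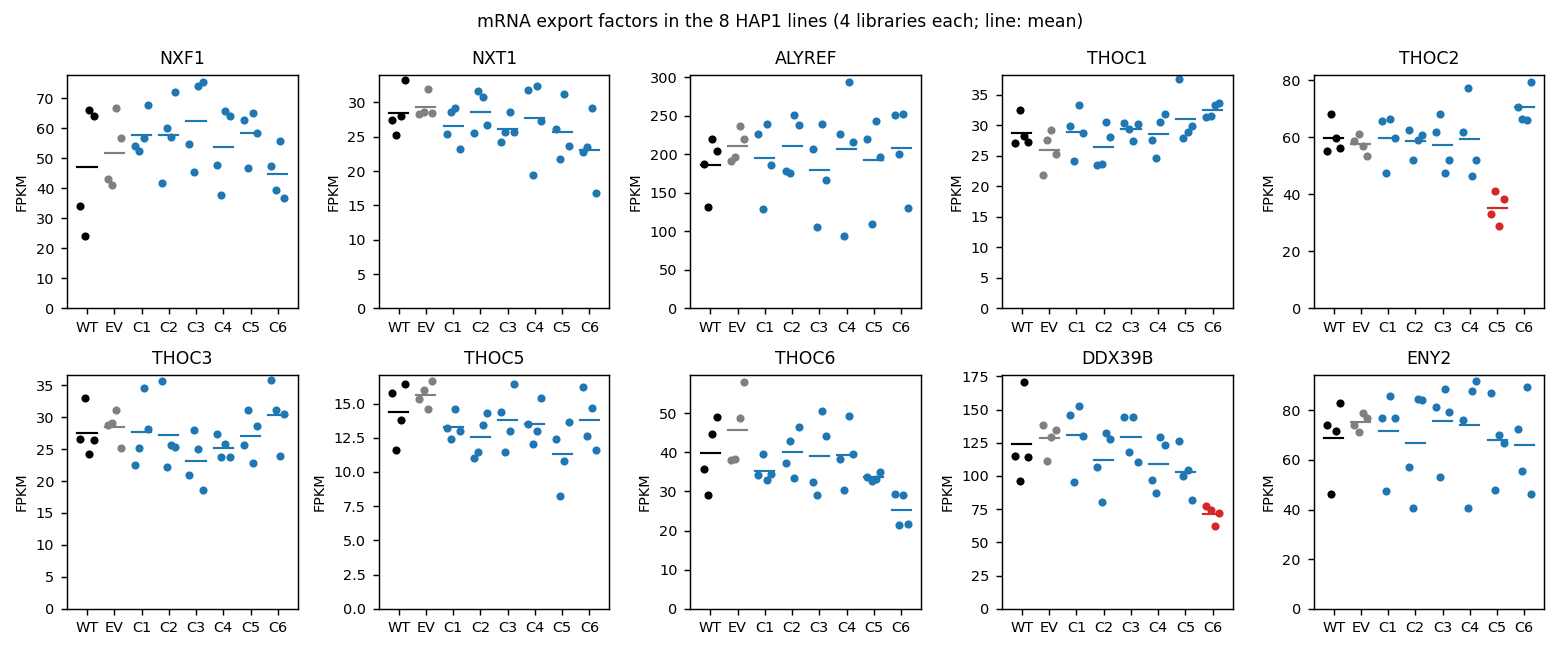
FPKM (linear axes from 0) of the 10 members in the 8 HAP1 lines, with 1 point for each library and a bar at the mean of the 4. THOC2 in C5 (28.7 to 41.3 FPKM) and DDX39B in C6 (62.5 to 77.5 FPKM), in red, lie below all 4 WT libraries.

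The comparison of the clones with WT asks whether cells that live with less NUP58 express the export factors at another level. Over the mean of the 6 clones 0 of 10 members passed an adjusted p of 0.05 in limma, where 6.6% of the 13180 genes tested passed, and 0 passed an unadjusted p of 0.05, where 20.1% of genes did. The log2 differences ran from -0.19 for DDX39B (SE 0.13) to 0.33 for NXF1 (SE 0.19, adjusted p = 0.33). The median over the 10 was -0.08, and that over all genes was -0.02. NXF1 held 34.2, 23.997, 66.1 and 64.0 FPKM in WT and 36.9 to 75.4 FPKM in the clones, and its difference was 0.06 without WT replicate 2. Its WT libraries alone spanned most of the range of the clones.

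The same held for the 4 clones C1 to C4 and for EV taken singly. In each of these comparisons with WT 0 of 10 members passed, while the share of all genes that passed was 0.479% for C1, 0.732% for C2, 0.0911% for C3, 0.16% for C4 and 0.038% for EV. Their log2 differences lay between -0.25 and 0.49. Against the other 5 clones no member of the 10 passed for clone C1 (0.44% of genes did), clone C2 (0.637%), clone C3 (2.53%) or clone C4 (0.964%). An F test over all 8 HAP1 lines passed for 3 of the 10 members, THOC2 (adjusted p = 0.000225), DDX39B (adjusted p = 0.00572) and THOC6 (adjusted p = 0.0257), and for 21.5% of all genes. The other 7 members had line means within a ratio of 1.39 of each other.

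THOC2 is the largest subunit of THO and the scaffold on which the complex is built. In C5 it held 33.2, 41.3, 28.7 and 38.3 FPKM, and in WT 55.2, 68.1, 59.6 and 56.2 FPKM. The means were 35.4 ± 5.5 and 59.8 ± 5.9 FPKM (SD, n = 4), and every C5 library was below every WT library. Non-overlap of this kind was seen for 1 of the 10 members and for 16.6% of all genes in C5. The log2 difference was -0.75 (SE 0.13, adjusted p = 0.00788), and THOC2 was the 1 member of 10 that passed in C5, where 7.55% of genes passed and 4.27% were lower. Against the other 5 clones it was lower by -0.77 (SE 0.11, adjusted p = 6.14e-06), again as the 1 member of 10, with 8.53% of genes called and 4.64% lower. With the unmoderated test, which estimates each gene's spread alone, the C5 comparison with WT had an adjusted p of 0.0565.

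THOC2 lies on the X chromosome (GRCh38 chrX:123600561-123733056). Other export genes of that chromosome moved with it in C5. NXT2, a paralog of NXT1, held 12.02, 10.3, 10.1 and 10.5 FPKM in C5 and 16.1 to 21.0 FPKM in WT, a log2 difference of -0.72 (SE 0.12, adjusted p = 0.00659). CETN2, a centrin of TREX-2, ranged from 19.2 to 30.4 FPKM in C5 and from 41.4 to 59.3 FPKM in WT, a difference of -0.95 (SE 0.16, adjusted p = 0.0071). The median log2 difference of all 447 X-linked genes tested was -0.55, with 84.1% below 0, 185 called lower and 8 called higher, and that of all other genes was 0.02. The ratio of THOC2 to THOC1, another THO subunit, was 0.884 to 1.48 in the C5 libraries and 1.95 to 2.67 in unedited HAP1. That of THOC2 to THOC5 was 2.66 to 4.99 in C5 and 3.21 to 5.87 in unedited HAP1, which overlapped. The copy number of the chromosome was not measured here, and its part in the level of THOC2 was not tested. In C6 THOC2 was higher than in the other 5 clones by 0.41 (SE 0.11, adjusted p = 0.00661), at 70.7, 66.3, 65.9 and 79.4 FPKM. The other 5 include C5, and the X-linked genes tested had a median of 0.19 in the same comparison, with 121 called higher and 17 lower. It differed from WT there by 0.24 (SE 0.11, adjusted p = 0.185).

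DDX39B in C6 held 77.5, 74.2, 62.5 and 71.8 FPKM, against 115.3, 96.0, 170.7 and 114.1 FPKM in WT. The means were 71.5 and 124 FPKM, the libraries did not overlap, and DDX39B was the 1 member of 10 with this pattern in C6, which 18.9% of all genes showed. The log2 difference was -0.76 (SE 0.16, adjusted p = 0.0156), the 1 call among 10 members in a comparison in which 11.7% of genes passed and 5.39% were lower. The unmoderated test gave an adjusted p of 0.127. Against the other 5 clones the difference was -0.68 (SE 0.14, adjusted p = 0.000609).

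A readthrough gene annotated over the same exons, ATP6V1G2-DDX39B, was listed at 138.4 FPKM on average in HAP1, so the split of reads between the pair is uncertain. The sum of the pair was 192.2, 175.9, 185.7 and 156.0 FPKM in C6 and 264.4, 212.1, 259.0 and 238.4 FPKM in WT. It still did not overlap, and its difference was smaller, -0.45 (SE 0.10, adjusted p = 0.0210). DDX39A, the close paralog of DDX39B on another chromosome, held 178.0, 140.1, 203.5 and 113.7 FPKM in C6 and 97.7 to 169.0 FPKM in WT. Reads of the paralogs can be shared in part.

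DDX39B lies on the short arm of chromosome 6 (chr6:31530219-31542448). Of the 67 genes tested within 1 Mb of it, 48 were called lower and 0 higher in C6, with a median of -0.85. Over the 366 genes tested on the short-arm side of the chromosome the median was -0.54, with 163 called lower, and over the 290 genes of the long-arm side it was 0.17. Other export genes of the short arm fell with DDX39B in C6. NUP153, a basket nucleoporin, ranged from 18.7 to 23.0 FPKM against 33.3 to 46.8 FPKM in WT, a log2 difference of -0.95 (SE 0.13, adjusted p = 0.00155). SRSF3, a splicing factor that recruits NXF1, differed by -0.61 (SE 0.14, adjusted p = 0.0224). The part of this chromosome arm in the level of DDX39B was not tested.

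THOC6, a small beta-propeller subunit of THO, was at 29.3, 21.4, 29.0 and 21.7 FPKM in C6 and at 35.9, 29.1, 44.8 and 49.1 FPKM in WT. The groups overlapped by 1 library on each side. The difference was -0.61 (SE 0.18) and missed the threshold (adjusted p = 0.0535), and it passed without WT replicate 2 (-0.75, adjusted p = 0.0139). Against the other 5 clones it was lower by -0.54 (SE 0.13, adjusted p = 0.00506). With THOC2 and DDX39B, 3 of 10 members passed in C6 against the other clones, 1 higher and 2 lower, where 16.3% of genes passed, 9.58% higher and 6.71% lower. The 57 genes tested within 1 Mb of THOC6 on chromosome 16 had a median of -0.06 in C6, with 2 called lower and 1 higher. HCFC1R1, which overlaps THOC6 on the opposite strand, differed by -0.42 (SE 0.20, adjusted p = 0.215). The strand of the libraries was not given in the sources used here, so reads of overlapping genes cannot be told apart.

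Of the 46 other export genes, 40 were expressed highly enough to be tested in HAP1. Over the mean of the clones 3 passed, 1 higher and 2 lower, which is 7.5% of the list beside the 6.6% of all genes. RBM15, an adaptor that recruits NXF1, rose by 0.68 (SE 0.13, adjusted p = 0.00144). It was at 5.2 to 11.1 FPKM in WT and at 12.8 to 18.5 FPKM in C6. PCID2, a TREX-2 subunit, fell by 0.36 (adjusted p = 0.00681), and GLE1, which activates RNA release at the cytoplasmic face of the pore, fell by 0.25 (adjusted p = 0.0131). Without C5 and C6, the clones with the largest shares of all genes called, 0 of the 40 passed. A block for the replicate number raised the count to 7. The share of all genes is not given for either setting, so neither count is a result about the list.

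In C5 1 of these 40 genes was higher and 4 were lower, 12.5% of the list beside 7.55% of all genes. RBM15 differed by 0.95, PCID2 by -0.84, GLE1 by -0.43, and NXT2 and CETN2 as given above. In C6 2 were higher (RBM15, 1.08, and NXT2, 0.58) and 4 were lower (NUP153, SRSF3, PCID2, -0.63, and the cap-binding NCBP3, -0.63), 15% of the list beside 11.7% of all genes. PCID2 lies on chromosome 13 like NUP58, and the median over the genes tested of that chromosome was -0.58 in C5 and -0.52 in C6. The 6 genes tested within 1 Mb of NUP58 had a median of 0.51 in C5 and of -0.54 in C6. By role, 0 of 8 other TREX subunits and adaptors and 0 of 5 exon junction complex genes passed in C5 or in C6. Of the 40 genes 0 passed against WT in the other 4 clones or in EV. There 0.038% to 0.732% of all genes passed, so a count of 0 could hardly move. An unadjusted p under 0.05 was reached by 0 to 4 of the 40 in each, and by 2.08% (EV) to 12.7% (C2) of all genes.

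For the HCT116 clone the question was the same. With all 15 libraries 0 of 10 members and 0% of the 12960 genes tested passed an adjusted p of 0.05, while 1 member and 10.4% of genes had an unadjusted p under 0.05. That member was THOC6. Its clone libraries held 26.3, 26.1, 50.2 and 24.7 FPKM, and the 11 controls ranged from 31.5 over a median of 41.6 to 53.7 FPKM. The clone thus lay below the controls in 3 libraries and among them in the library labelled replicate 3. The log2 difference was -0.43 (SE 0.16, adjusted p = 0.391).

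Without the libraries numbered 3, of 3 clone and 9 control libraries, 2 of 10 members passed, both lower, where 5.92% of 13000 genes passed. THOC6 then differed by -0.67 (SE 0.13, adjusted p = 0.00881), with means of 25.7 ± 0.88 FPKM (SD, n = 3) and 42.0 ± 6.0 FPKM (SD, n = 9). NXT1 held 21.0, 21.1 and 16.997 FPKM in the clone and 22.5 to 33.0 FPKM in these controls, a difference of -0.48 (SE 0.12, adjusted p = 0.0364). Neither gene overlapped between the groups, as was so for 10.0% of all genes. In the library labelled clone replicate 3 NXT1 was at 33.5 FPKM, above every control, and in that labelled EV2 replicate 3 it was at 20.9 FPKM, below every other control. Leaving out the clone library alone left THOC6 at -0.67 (adjusted p = 0.0153), and NXT1 did not pass in that fit. The call of NXT1 thus also rested on leaving out the controls numbered 3. HCFC1R1, the gene opposite THOC6, held 75.3, 72.3 and 63.3 FPKM in these 3 clone libraries and 64.2 to 128.6 FPKM in the controls. ASNS, an amino acid response gene, was at 42.6 to 75.3 FPKM in the 4 clone libraries. In the 11 controls it was at 66.8 to 349.5 FPKM. With ASNS as a covariate over all 15 libraries no member passed, and the share of all genes is not given for that fit. The part of ASNS in the differences without the libraries numbered 3 was not tested. Of the other export genes tested 0 passed, with or without these libraries.

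**Figure D2:**
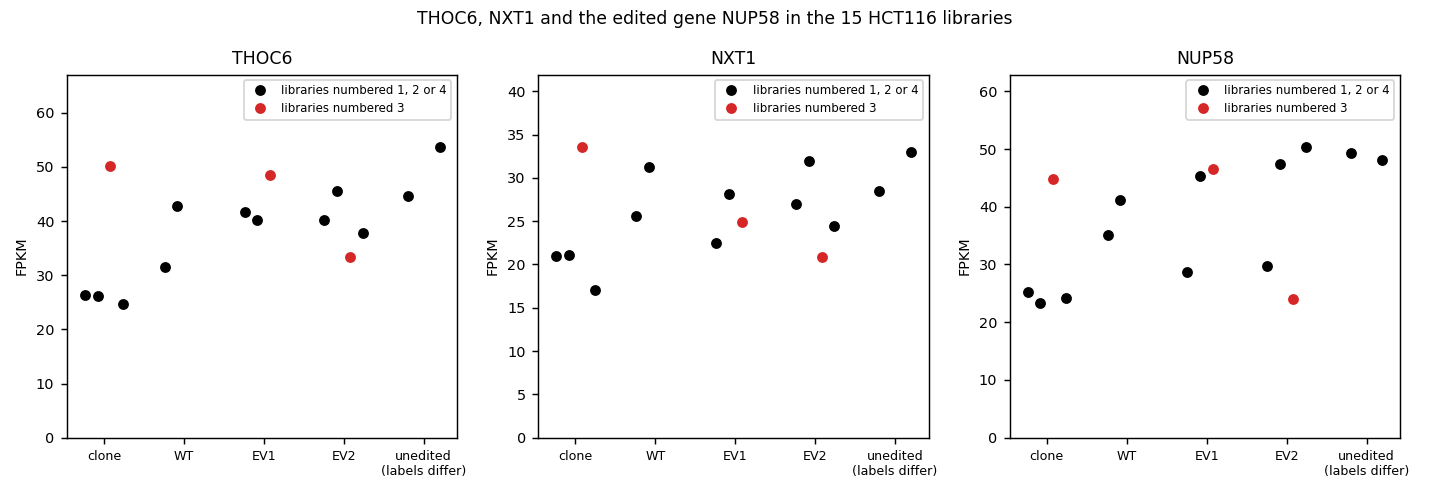
FPKM (linear axes from 0) of THOC6, NXT1 and NUP58 in the 15 HCT116 libraries by their labels, with 1 point for each library and the libraries numbered 3 in red. In all 3 panels the red point of the clone lies above its other 3 points, and the red point of EV2 is the lowest of the EV2 libraries.

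The clone effect in HAP1 minus that in HCT116 was tested for each member, and 0 of 10 passed, where 1.8% of genes did. The differences ran from -0.21 for THOC2 to 0.32 for ALYREF. Without the libraries numbered 3 that of THOC6 was 0.51 (SE 0.20, adjusted p = 0.117), so a difference between the cell lines in this gene did not pass either.

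More genes differed between unedited HAP1 and unedited HCT116 than between any clone and its parent. Of the 10 members 6 passed, 3 higher and 3 lower in HAP1, and 68% of genes passed, 39.5% higher and 28.5% lower, so the share of members called was close to that of all genes. Without overlap between the lines were 4 members, against 32.4% of all genes. The lines also differ in origin, ploidy and culture history, which cannot be told apart.

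Within THO the subunits went opposite ways. THOC1 was at 21.9 to 32.6 FPKM in HAP1 and at 10.0 to 15.2 FPKM in HCT116, a log2 difference of 1.05 (SE 0.08, adjusted p = 1.1e-10). THOC2 was at 53.5 to 68.1 and at 25.1 to 40.0 FPKM, a difference of 0.96 (SE 0.07, adjusted p = 1.49e-10). The 448 genes tested of its chromosome, the X, had a median difference of 1.09, with 377 called higher and 40 lower. All other genes had a median of 0.08. THOC5 was at 11.6 to 16.7 and at 25.4 to 42.4 FPKM, a difference of -1.05 (SE 0.10, adjusted p = 2.08e-09). The 3 subunits did not overlap between the lines. The 6 genes tested within 1 Mb of THOC1 had a median of 0.61, with 3 called higher and 1 lower. The 28 genes near THOC5 and the 13 near THOC3 had medians of 0.21 and 0.23. THOC3 was lower in HAP1 by -0.48 (SE 0.08, adjusted p = 1.42e-05), with medians of 27.6 and 41.4 FPKM. THOC6 had medians of 41.6 FPKM in both lines and a difference of 0.02 (SE 0.12).

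The ratio of THOC2 to THOC5 was 3.21 to 5.87 in unedited HAP1 and 0.59 to 1.08 in unedited HCT116. That of THOC1 to THOC5 was 1.43 to 2.81 and 0.317 to 0.46. The ratio of THOC2 to THOC1 overlapped between the lines, at 1.95 to 2.67 and 1.86 to 3.02. USP14, which overlaps THOC1 on the opposite strand, differed in the same direction as THOC1, by 1.00 (SE 0.11, adjusted p = 4.01e-08). NIPSNAP1, which overlaps THOC5 on the same strand, differed by -0.04 (SE 0.30).

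Outside THO, ENY2 was lower in HAP1, at 46.1 to 82.8 FPKM against 94.9 to 158.0 FPKM, a difference of -0.81 (SE 0.11, adjusted p = 1.4e-06). Of the 4 genes tested within 1 Mb of ENY2, 3 were called lower and 1 higher, with a median of -0.50. The part of the surrounding genes or of the chromosome in the levels of ENY2, THOC1, THOC2, THOC3 and THOC5 was not tested. NXF1 was higher by 0.46 (SE 0.17, adjusted p = 0.0207), with overlapping ranges of 23.997 to 66.8 and 22.1 to 44.3 FPKM, and it lost the call in 6 of 27 alternatives. NXT1 differed by 0.10, ALYREF by 0.02 and DDX39B by 0.18 (adjusted p = 0.0813), none of which passed. The value of DDX39B depends on how reads were split with its readthrough gene. Their sum was 212.1 to 285.5 FPKM in unedited HAP1 and 173.4 to 240.6 FPKM in unedited HCT116, and was not tested between the lines. With median-ratio scaling, which moved the median of all genes from 0.10 to 0.00, the values of NXT1, ALYREF and THOC6 turned to -0.01, -0.09 and -0.09. DDX39B passed with TPM scaling (0.25, adjusted p = 0.0265), without HAP1 WT replicate 2 (0.23, adjusted p = 0.0191) and without HCT116 EV1 replicate 2 (0.20, adjusted p = 0.0486).

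Of the 41 other export genes tested between the lines 24 were higher and 5 lower in HAP1, 70.7% of the list beside 68% of all genes. By direction, 39.5% of all genes were higher and 28.5% lower. The median difference was 0.30 over the list and 0.10 over all genes. The largest difference was in DDX19B, a helicase that releases RNA at the cytoplasmic face of the pore. It was listed at 0.041 to 0.53 FPKM in HAP1 and at 13.9 to 23.0 FPKM in HCT116, a difference of -3.81 on the log2(FPKM + 1) scale, which understates changes of low genes. Its paralog DDX19A had medians of 30.9 and 26.5 FPKM. CETN2 differed by 1.202 (adjusted p = 4.12e-08), DDX39A by 0.73 and NXT2 by 0.53, of which CETN2 and NXT2 are X-linked like THOC2. Of the 6 NXF1 adaptors outside TREX, named after their values were seen, 5 were higher in HAP1, as were 39.5% of all genes. They were SRSF1, SRSF3, SRSF7, RBM15B and CPSF6, and RBM15 differed by -0.23 (adjusted p = 0.137).

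**Figure D3:**
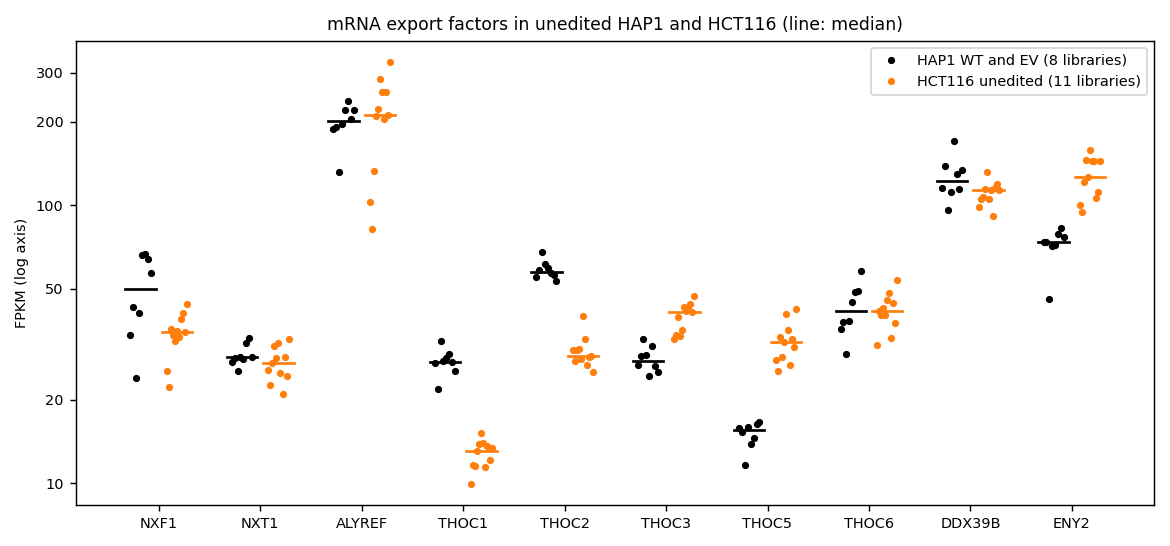
FPKM on a log axis of the 10 members in unedited HAP1 (black, 8 libraries) and unedited HCT116 (orange, 11 libraries), with 1 point for each library and a bar at the median. THOC1 and THOC2 lie higher and THOC5 and ENY2 lower in HAP1 without overlap, while THOC6 has a median of 41.6 FPKM in both lines.

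Between libraries of the same line the members varied unequally. The SD within HAP1 lines on the log2 scale was 0.149 for THOC1 and 0.444 for ALYREF, with 0.388 for ENY2 and 0.37 for NXF1. These last genes moved together. After each line's mean was taken out, ALYREF and ENY2 had r = 0.889 over the 32 HAP1 libraries, NXF1 and ALYREF 0.664, and NXF1 and ENY2 0.656. Among all pairs of members the next highest were NXF1 and THOC6, r = 0.807, and THOC5 and ENY2, r = 0.722. THOC2 went the other way and gave the lowest pairs, with r = -0.68 against NXT1 and r = -0.654 against THOC6. Genes outside the list followed members more closely, as PRELID1 did ALYREF (r = 0.981) and LDHA did ENY2 (r = 0.963). Such shared movement was therefore not particular to export factors. The libraries share lines and replicate numbers, so these values are descriptions. Over the 15 HCT116 libraries, centred on clone and controls, ALYREF and ENY2 had r = 0.471, NXF1 and THOC6 0.245, and THOC5 and ENY2 0.291, and over the 12 not numbered 3 the values were 0.75, 0.557 and 0.615. THOC2 had r = -0.369 against NXT1 and -0.427 against THOC6 over the 15, and 0.0026 and -0.151 over the 12, so its opposite movement was not seen in the latter.

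These swings followed ASNS, asparagine synthetase, a gene induced when amino acids run short. ASNS ranged from 32.5 to 450.6 FPKM over the HAP1 libraries. ENY2 had r = -0.884 with ASNS, ALYREF -0.812, NXF1 -0.789, DDX39B -0.66, THOC5 -0.567, THOC6 -0.548, THOC1 -0.524 and NXT1 -0.437, while THOC3 had 0.202 and THOC2 0.356. Without the 2 libraries farthest from the median of ASNS the values of ENY2, ALYREF and NXF1 were -0.842, -0.743 and -0.819. In C4, for example, ASNS was at 89.2, 433.7, 32.5 and 37.5 FPKM while ENY2 was at 76.1, 40.8, 87.8 and 91.7 FPKM. Over all 15 HCT116 libraries ALYREF had r = -0.502 with ASNS, NXF1 -0.477 and ENY2 -0.177. Over the 12 not numbered 3 the values were -0.685, -0.523 and -0.437. With ASNS as a covariate 0 of 10 members passed in the mean of the clones, and the share of all genes is not given for that fit. How ASNS correlated with all other genes is not given, so these values are not a result particular to the members. The part of culture conditions in these swings was not tested.

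The genes most like each member over these 32 libraries, by the same centred correlation over 13179 genes, were PRELID1, ILF2 and CDCA5 for ALYREF (r = 0.981 to 0.977) and LDHA, C1QBP and VDAC3 for ENY2 (0.963 to 0.959). For NXF1 they were a transcript named only by its clone, PKI55 and EMC10 (0.959 to 0.952), and PKI55 was also among those of THOC6, with SGF29 and ATP6V0B. For NXT1 they were MFAP1, SNRPB and HYPK (0.861 to 0.807), for THOC5 HDAC1, THTPA and MORF4L1P1 (0.889 to 0.831), and for THOC2 ARHGEF12 and USO1 (0.826 and 0.818). The highest values were lower for THOC1 (RSRC2, 0.733), THOC3 (C6orf1, 0.729) and DDX39B (MRPL27, 0.791).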

How the data were processed

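RNA was measured in 47 libraries of cultured cell lines. The authors ran STAR on trimmed reads against Ensembl GRCh38.p13, and RSEM then gave 1 FPKM value per gene and library. These FPKM were deposited without normalization between libraries, which leaves composition differences in place. Versions were not given in the sources used here. Every column was mapped to a sample through the labels, and no pair of libraries was identical.

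FPKM were tested as log2(FPKM + 1) in limma 3.58.1 (R 4.3.3) with a mean-variance trend, with genes kept where FPKM averaged 1 or more, and p-values were adjusted by Benjamini-Hochberg over all genes tested. A call is an adjusted p under 0.05. Single HAP1 lines were fitted with WT alone; the mean of the clones and each clone against the others were fitted over all 32 HAP1 libraries. The study describes its RNA-seq replicates as biological experiments, and each edited line is 1 clone, so p-values measure the spread between repeats of a line. On simulated data 200 genes of each comparison were changed by 1 on the log2 scale, up or down. Noise was drawn separately for each library. In the comparison of the 6 clones with WT (13180 genes) 187 were called, with 15 unchanged genes. In that of C6 with WT (13371 genes) 148 were called, with 6 unchanged genes. For the difference of clone effects (13629 genes) it was 152, with 8. Changes as small as those of the members over the mean of the clones (-0.19 to 0.33) were not simulated.

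The members and gene lists were chosen with earlier results of these data known. Named beside the 10 members were export genes called in a clone or past a log2 difference of 1 between cell lines, the paralogs DDX39A and NXT2, and the 3 genes most correlated with each member, of which 1 is not reported here. The adaptors compared between the cell lines and the readthrough gene were named after their values were seen. Promoters are from RefSeq, and 98.1% of identifiers matched GENCODE release 44. Same-numbered libraries of WT and of C1 to C4, EV and the mean of the clones deviated together (every pair's correlation above 0.1; for the mean 0.356 to 0.720), a pairing found from the data. Figures were drawn with matplotlib. Alternatives covered the pseudocount, the filter, 2 scalings, the trend, the test, the control line, ASNS as a covariate, a replicate block and leaving out libraries. Proteomics, exome data and reads were not used here.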

Additional observations from a re-analysis of the deposited data

Results flagged for a closer look

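In each of the 100 sets of 4 libraries of 1 line, for 1 member, the library farthest out was compared with the others by Dixon's test, and 2 stood apart; chance alone flags about 1 in 20. THOC6 in the library labelled HCT116 clone replicate 3 was at 50.2 FPKM, with the other 3 clone libraries at 24.7 to 26.3 FPKM. The same library had NUP58 at 44.7 FPKM, the level of controls. NXT1 in HAP1 EV replicate 3 was at 31.98 FPKM, with the other EV libraries at 28.3 to 28.5 FPKM.

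The effect of 1 clone differed from that of the other 5 by a direct test in limma for 3 members. THOC2 differed by -0.77 in C5 and by 0.41 in C6, on the log2 scale, DDX39B by -0.68 in C6 and THOC6 by -0.54 in C6. In C5 the X-linked genes tested had a median difference from the other clones of -0.49, and in C6 those of the short-arm side of chromosome 6 had a median of -0.54, with a median of 0.19 for the X-linked genes. The part of these regions in THOC2 and DDX39B was not tested.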

How the results depend on the processing

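The number of members called stayed within 1.5 times its main value, or at 0 where that was 0, in 234 of 242 alternatives over all comparisons. These include C1 to C4 and EV against WT, where 0.038% to 0.732% of genes passed and a count of 0 could hardly move. Against WT, C5 had 1 member called and 0 with the unmoderated test. C6 had 1, and 0 with the unmoderated test, 2 with all 32 HAP1 libraries in 1 fit and 3 with EV as the control. With the replicate number as a block C6 had 2 (THOC6 added, adjusted p = 0.0477); in C5, C6 and HCT116 the numbers did not pair the libraries, and the block changed the count of members in no other comparison. Leaving out 1 library at a time gave 1 to 2 in C6 and 0 to 1 in the HCT116 clone, and leaving out the libraries numbered 3 gave 2 there. DDX39B in C6 ran from -0.87 to -0.45 over 18 alternatives and kept its call in 17; THOC2 in C5 ran from -0.83 to -0.66 and kept it in 16 of 17. Between the cell lines, ENY2, THOC1, THOC2 and THOC5 kept their calls in all 27 alternatives, THOC3 in 26 and NXF1 in 21. Of the 40 other export genes 3 were called over the mean of the clones, and 9 with WT and EV as the control, 7 with the block, 7 with ASNS as a covariate, 2 with EV as the control or without C5, and 0 without C5 and C6. For C5 the unmoderated test called 2 of them in place of 5, and 3 were called without 1 of WT replicates 1 or 4 or C5 replicates 1, 3 or 4; for C6 it called 2 in place of 6. The F test called 13 with the block in place of 7, and the cell line comparison 12 with WT libraries alone in place of 29. The alternatives without C5 and C6 and with the summed readthrough gene, and all for the comparisons of 1 clone with the other 5 and between clone effects, were added after seeing the data. The shares of all genes called under these alternatives are not given in this section, so these counts are not results about the lists. The cause of these changes was not tested. FPKM without counts give no absolute depth, so the precision of low values cannot be stated.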

Other observations

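The export genes with close partners can also be read as ratios of FPKM within a library, which were not tested. DDX39B over DDX39A was 0.307 to 0.631 in C6, 0.714 to 1.03 in unedited HAP1 and 0.969 to 2.00 in unedited HCT116. This ratio leaves out the readthrough gene over the exons of DDX39B, so it depends on how reads were split. NXF1 over NXT1 had a median of 1.72 in unedited HAP1 (0.949 to 2.36), 2.09 in the 24 clone libraries (1.51 to 2.93) and 1.33 in unedited HCT116 (0.983 to 1.87). THOC6 over THOC5 was 1.69 to 1.98 in C6 and 2.28 to 3.48 in unedited HAP1, which did not overlap.

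Positions are from GENCODE release 44 on GRCh38 by match of gene identifiers. NXF1 spans chr11:62792123-62806302, NXT1 chr20:23350791-23354771, ALYREF chr17:81887835-81891586, THOC3 chr5:175917873-176034680, THOC5 chr22:29505879-29555216 and THOC6 chr16:3024027-3027755. ALYREF overlaps ANAPC11 on the opposite strand, which had a mean of 85.7 FPKM in HAP1.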
